A study of Homo sapiens with 20 samples.

Results

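Wild-type (WT) NTERT keratinocytes were compared 6 h after high-density wounding (HDW) with unwounded WT cultures, 5 libraries against 5. These 10 of the 20 libraries in the study were chosen by their genotype and wounding labels alone, and no measured value entered the choice. NTERT cells are a human keratinocyte line immortalised by expression of hTERT, and the study describes WT cells as having been given a control guide RNA. Both groups were grown in low-calcium EpiLife medium, brought to confluence and differentiated with 2 mM calcium chloride and 2% fetal bovine serum. The study's methods give 36 h of differentiation before HDW, whereas its results text gives a longer time. For HDW, multichannel pipet tips were drawn across the monolayer along one axis and then across it, so the harvested well held cells at wound edges together with cells away from them. The other 10 libraries come from a CRISPR-edited pool of cells depleted of the eIF2 kinase GCN2 (GCN2KO), 5 unwounded and 5 wounded. They served here to compare responses between genotypes, and also entered the common scaling of normalized read counts. Total RNA was sequenced as paired 150 bp reads, and the files hold raw counts of reads per gene.

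When an epidermal sheet is cut, keratinocytes at the edge leave their resting state and crawl forward as a connected sheet over newly laid matrix. Calcium entry, cell stretch and shed growth factors of the EGF family are known to switch on ERK and AP-1 signaling, which drive stress keratins, proteases and integrin ligands. Protein synthesis and amino acid supply are linked to this program through the integrated stress response, in which kinases phosphorylate eIF2 and the transcription factor ATF4 is translated preferentially.

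The unwounded libraries held 14083504 to 30505904 counts and the HDW libraries 29320528 to 34611570, so the less abundant genes were measured more precisely after HDW. Library-to-library Pearson correlations of log2 CPM were 0.9913 to 0.9955 among unwounded libraries, 0.9929 to 0.9964 among HDW libraries and 0.9803 to 0.9859 between the groups. No library stood closer to the other group than to its own, and no pair was alike within sampling noise. All 12 keratinocyte markers were expressed, from KRT5 and KRT14 of basal cells to IVL of suprabasal cells, and their summed normalized counts were 643374 to 664799 unwounded and 675566 to 724897 after HDW. Of 7 leukocyte markers PTPRC was at 0 counts in all 10 libraries and CD3E, CD1A and CD207 stayed at or below 10 normalized counts, whereas the myeloid markers CD14 and CD68 were detected, and the summed level of the list was 1614 to 1870.1 unwounded and 899 to 1052 after HDW. Of 6 melanocyte markers TYR, TYRP1 and DCT were at or below 10, the other 3 were above it, MITF rose by 0.54 on the log2 scale, and the sum was 130.4 to 171 and 176 to 209. The part of these markers in the results was not tested. The study's methods say that cells were plated and treated in 5 replicates, and whether these came from separate days or passages is not given in the sources used here, so p-values measure the spread between these cultures.

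Of 15348 genes that passed a filter on low counts, 402 were differentially expressed (DE) and higher after HDW (2.62%) and 238 were DE and lower (1.55%). DE genes changed by at least 1 on the log2 scale in either direction, at an edgeR adjusted p of at most 0.05. At the adjusted p alone, 4013 genes were higher (26.1%) and 3865 lower (25.2%), 51.3% of genes in all. In the text a gene rose or fell if it passed that adjusted p. The counts of rising and falling members of each list below are to be read against these shares of 26.1% and 25.2%. Over all genes the log2 fold change had a median size of 0.20, and the signed median was -0.0024. The DE genes of either direction were 4.17% of genes tested. In 569 of these 640 DE genes (365 higher and 204 lower) the 5 HDW libraries did not overlap the 5 unwounded ones, against 36.9% of all genes tested. A log2 fold change of at least 2 was reached by 76 of the higher genes but only 11 of the lower ones. In bulk RNA, fewer cells of a kind and less RNA per cell cannot be told apart.

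The highest-ranking risers included genes of the activated keratinocyte, of proteolysis and of the actin cytoskeleton. KRT6B, an intermediate filament keratin of wounded epidermis, held 1014, 1112, 886, 1044 and 981 normalized read counts in the unwounded cultures and 13072, 10947, 12325, 14578 and 14085 after HDW. Normalized read counts are deposited counts brought to a common depth with TMM factors over all 20 libraries. The lowest HDW culture had 9.85 times the KRT6B of the highest unwounded one, and it is the riser with the smallest adjusted p. ADAM8, a metalloproteinase that sheds surface proteins, went from 57.6, 66.0, 65.2, 80.8 and 72.3 to 557, 697, 668, 638 and 691, a change of 3.21 log2 units (SE 0.0920, edgeR adjusted p = 3.27e-12). SH3KBP1, an adaptor in EGF receptor endocytosis, rose from 753 ± 23.0 to 2567 ± 169 (mean ± SD, n = 5 in each group), and AKAP12, a scaffold for protein kinase A, by 3.22 on the log2 scale. SEMA7A, a membrane-anchored semaphorin that binds integrins, went from 43.7, 64.2, 41.1, 59.5 and 53 to 346, 348, 331, 325 and 366, a change of 2.70 log2 units (SE 0.0979, edgeR adjusted p = 2.60e-11). TGM2, the tissue transglutaminase that crosslinks matrix proteins, went from 165, 205, 163, 168 and 165 to 786, 679, 772, 809.6 and 848 with a change of 2.18 log2 units (SE 0.0748, edgeR adjusted p = 2.14e-11). Neither gene overlapped between the groups. OSBP2, an oxysterol-binding protein, rose by 2.36 on the log2 scale, CAPN14, a calpain protease of squamous epithelia, by 3.02, and the potassium-transporting ATPase ATP12A by 2.96. APOBEC3A, a cytidine deaminase, rose from 40.0 ± 10.1 to 315 ± 47.4, and the long non-coding RNA LINC00707 from 7.42 ± 3.28 to 103 ± 23.0.

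The highest-ranking fallers included receptors, transporters and membrane scaffolds. METTL7A, a lipid droplet and endoplasmic reticulum methyltransferase, was the faller with the smallest adjusted p, from 2779 ± 166 to 641 ± 46.4. ANK3, an ankyrin that ties membrane proteins to spectrin, fell from 1902, 1958, 1973, 2059.8 and 2016 to 686, 738, 663, 683 and 664, a change of -1.53 log2 units (SE 0.0380, edgeR adjusted p = 6.41e-13). CD36, a scavenger receptor for fatty acids, fell from 366, 275, 489, 252 and 365 to 83.5, 66.5, 81.0, 88.7 and 81.3 normalized counts, a change of -2.13 log2 units (SE 0.164, edgeR adjusted p = 5.27e-08). SLC43A2, a transporter of neutral amino acids, fell from 580.3, 817, 594, 805 and 728 to 135, 241, 170.5, 137 and 151, which gave -2.08 log2 units (SE 0.142, edgeR adjusted p = 1.47e-08). In all 3 genes with values given by culture the highest HDW culture lay below the lowest unwounded one. FGFR3, a receptor that carries FGF signals, fell by 1.75 on the log2 scale and the signaling ligand WNT4 fell by 1.80. CLEC2B, a lectin-like ligand, fell by 2.38, the cyclic AMP phosphodiesterase PDE4D fell by 1.90, and NNMT, which methylates nicotinamide, fell by 1.40. TP73, of the p53 family, fell by 1.32, whereas TP63, the family member that maintains the epidermal state, fell by 0.14 at 12016 ± 349 and 10909 ± 301 normalized counts.

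**Figure D1:**
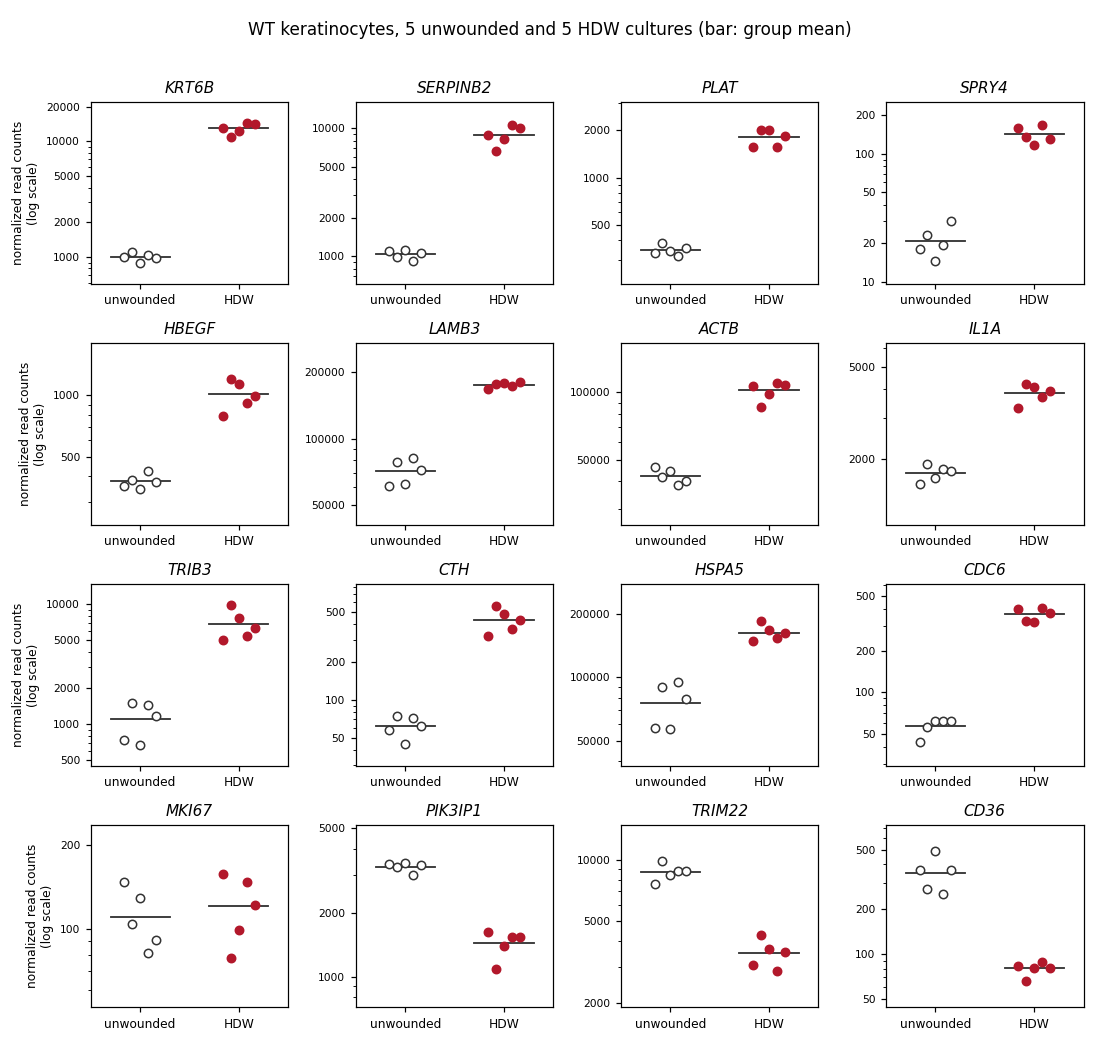
Normalized read counts (vertical axis, log scale) of 16 genes in the 5 unwounded (open circles) and 5 HDW (filled circles) WT cultures, with a bar at each group mean. The groups lie apart in each panel drawn except that of MKI67, a mitotic gene, where they overlap.

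Signaling through the EGF receptor and ERK was followed through its ligands, its transcription factors and its feedback inhibitors. Of 12 measured EGF family ligands and receptors, 8 rose and 2 fell. The ligand HBEGF held 359.7, 385, 348, 423 and 377 normalized counts unwounded and 795, 1199, 1140.2, 917 and 992 after HDW. All HDW cultures had more than the highest unwounded culture. Its log2 fold change was 1.41 log2 units (SE 0.102, edgeR adjusted p = 2.71e-08). EREG, another ligand, went from 1989, 2741, 1955, 2589 and 2511 to 4904, 7405, 6790.5, 5720.4 and 5926, a change of 1.38 log2 units (SE 0.110, edgeR adjusted p = 7.18e-08). AREG rose by 0.96 and NRG1, which signals through ERBB3 and ERBB4, by 0.79 on the log2 scale, while BTC fell by 0.46. The receptor EGFR rose by only 0.28 and the sheddase ADAM17 by 0.23, whereas ERBB2 fell by 0.12.

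The feedback genes of this pathway and its immediate-early transcription factors mostly rose. Among 18 measured ERK feedback genes, 13 rose and 1 fell, 7 of them were DE and higher, and the median log2 fold change was 0.74. SPRY4, a Sprouty inhibitor of receptor tyrosine kinases, held 17.9, 23.2, 14.5, 19.5 and 29.9 normalized counts unwounded and 160.2, 136, 118, 169.5 and 131 after HDW, a change of 2.73 log2 units (SE 0.172, edgeR adjusted p = 6.35e-09). No HDW culture came near the unwounded range. The ERK phosphatase DUSP4 went from 481, 487, 417, 518 and 499 to 1445, 1338, 1446, 1515 and 1446, a change of 1.58 log2 units (SE 0.0536, edgeR adjusted p = 2.06e-11). DUSP6, an ERK phosphatase with 28.6% of its exonic bases shared with another gene, rose by 1.72, and the ETS factors ETV5 and ETV4 by 1.98 and 1.81. DUSP10, which acts on JNK and p38, fell by 0.29. Of 22 AP-1, EGR and related factors, 16 rose and 2 fell with a median of 0.36, and only EGR3, FOSL1, NR4A1 and EGR1 were DE. FOSL1, the AP-1 subunit of migrating epithelia, went from 308, 294, 302, 328 and 329 to 837, 957, 1042, 923 and 949 normalized counts. Other AP-1 subunits differed, for FOS had 897 ± 85.7 unwounded and 833 ± 66.7 after HDW (adjusted p = 0.179) and the most abundant subunit measured, FOSL2, fell by 0.56.

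Some genes of activin, YAP and prostaglandin signaling were DE. INHBA, which encodes the subunit of activin A, held 3245, 3326, 3291, 3402 and 3399.7 normalized counts unwounded and 7422, 5949, 6464, 7739 and 7318 after HDW, a change of 1.06 log2 units (SE 0.0594, edgeR adjusted p = 1.87e-09). FST, the secreted activin antagonist, rose alongside it by 1.24. CCN1 and CCN2, matrix-associated proteins and textbook YAP/TEAD targets, rose by 1.22 and 1.38, the latter from 38.6 ± 5.15 to 98.6 ± 24.6 normalized counts. Over the whole YAP/TEAD list of 23 measured genes, 10 rose, 4 fell and the median was 0.09. In the opposite direction, the bone morphogenetic protein targets ID3 and ID2 and the inhibitory SMAD6 fell, ID3 from 5709.6, 5149.9, 5523, 4537 and 4900.5 to 2219.8, 2165, 2137, 1931 and 1924 normalized counts. That is a change of -1.32 log2 units (SE 0.0622, edgeR adjusted p = 4.13e-10) with no overlap. Of the 32 measured TGF-beta and activin genes 10 rose and 9 fell, so the list as a whole moved in neither direction (median -0.02). PTGS2, the inducible cyclooxygenase, rose by 1.24 and the prostaglandin E2 receptor PTGER4 by 1.57, whereas the constitutive cyclooxygenase PTGS1 fell by 1.04 and the leukotriene receptor LTB4R fell by 1.23.

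Keratins and envelope precursors rose selectively, and did not follow one differentiation direction. All 5 wound keratins rose, KRT6C by 1.21, KRT6A by 1.03, KRT17 by 0.50 and KRT16 by 0.40 on the log2 scale. KRT6A, KRT6B and KRT6C are near-identical paralogs. The study counted uniquely mapped reads, so reads that fit several of these genes would be left out. The size for each member is therefore uncertain. SPRR2D, a small proline-rich precursor of the cornified envelope, held 165, 162, 130.4, 117 and 139 normalized counts unwounded and 1190.4, 977, 1011, 1192 and 1289 after HDW, a change of 3.02 log2 units (SE 0.100, edgeR adjusted p = 1.80e-11). The family members SPRR2A (2.04), SPRR2E (1.87) and SPRR3 (1.08) were also DE and higher. SPRR2 genes share sequence too, and carry the same uncertainty. The late marker FLG went the other way, from 149, 111, 112, 136 and 121 to 64.1, 71.5, 73.4, 53.8 and 46.7, a change of -1.01 log2 units (SE 0.135, edgeR adjusted p = 1.52e-05), and the envelope protease CASP14 fell by 0.75. IVL, an early envelope protein, rose by 0.51, while TGM1, the transglutaminase that assembles the envelope, fell by 0.34. Of the 23 measured cornified envelope and late differentiation genes 13 rose and 4 fell. KRT15, a keratin of resting basal cells, fell by 0.98 on the log2 scale. Of 10 measured basal and suprabasal keratins, however, 5 rose, 2 of them DE and higher, and only 1 fell.

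Secreted proteases and their inhibitors gave some of the sharpest separations. Of 15 measured genes of plasminogen activation and coagulation, 9 rose and 2 fell. PLAT, the tissue plasminogen activator, held 332, 380.1, 338, 316 and 358 normalized counts unwounded and 1557, 2012, 2016, 1568 and 1844 after HDW, a change of 2.39 log2 units (SE 0.0852, edgeR adjusted p = 2.60e-11). SERPINB2, an inhibitor of plasminogen activators, went from 1107, 979.7, 1113, 916 and 1063 to 8927, 6611, 8202, 10705 and 10103, a change of 3.10 log2 units (SE 0.112, edgeR adjusted p = 2.60e-11). Activator and inhibitor thus rose together, and the unwounded and HDW ranges were far apart in both. The urokinase receptor PLAUR rose by 1.43, tissue factor F3 by 1.39 and the Kunitz inhibitor TFPI2 by 2.42, while TFPI, the inhibitor of tissue factor, fell by 1.11 from a low level of 62.5 ± 15.8. Of the abundant genes of the system, urokinase PLAU did not pass at 6275 ± 458 and 6389 ± 284 (adjusted p = 0.718). Among metalloproteinases and their inhibitors 13 of 25 rose and 6 fell. The metalloproteinase inhibitor TIMP1 rose by 0.72, whereas TIMP3, the most abundant gene of that list, fell by 0.41. Of the epidermal protease inhibitors, cystatin CST6 rose by 1.71 and elafin PI3 by 1.04.

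Among matrix genes, changes included laminin-332, the adhesive ligand that keratinocytes lay down as they move. Its chain genes LAMB3 and LAMA3 rose. LAMB3 held 60908, 77978, 61862, 81833 and 71664 normalized counts unwounded and 168574, 176552, 179282, 173550.0 and 180745 after HDW, a change of 1.31 log2 units (SE 0.0707, edgeR adjusted p = 1.40e-09). LAMA3 rose by 0.96 (adjusted p = 8.11e-10). No library of either group reached the other group's range for either chain. The chains of other laminins did not follow, since LAMB1 fell by 0.89, LAMB2 fell by 0.39, and LAMC1 held 11969 ± 313 and 12233 ± 469 (adjusted p = 0.518). Tenascin TNC, a wound matrix protein, rose by 1.5, and the crosslinking enzyme LOXL4 fell by 1.46. Integrin subunits changed little, 8 of 16 rising and 1 falling with ITGB5 rising most at 0.80. The laminin-332 receptor subunits ITGA3 and ITGA6 rose by 0.35 and 0.20, and their partner ITGB4 had an adjusted p of 0.0717, which was 0.0101 without HDW replicate 2.

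Actin cytoskeleton genes moved in both directions, with more rising than falling. ACTB, cytoplasmic beta-actin, held 46521, 41829, 44623, 38377 and 40158 normalized counts unwounded and 107190.0, 85777, 98600.1, 110690.0 and 108400.0 after HDW, a change of 1.27 log2 units (SE 0.0693, edgeR adjusted p = 1.52e-09). The regulatory myosin light chain MYL9 went from 167, 116, 134, 128 and 151 to 728, 492, 633, 776 and 696, a change of 2.26 log2 units (SE 0.124, edgeR adjusted p = 1.57e-09). Filamin FLNA, which crosslinks actin, rose by 0.74 and tropomyosin TPM4 by 1.01. TAGLN, an actin-binding protein of contractile cells, rose from 64.0 ± 15.4 to 789 ± 154, but 47.8% of its exonic bases also belong to another gene. In the same list of 37 measured genes 20 rose and 7 fell. TPM1 fell by 0.54, LASP1 fell by 0.27 and caldesmon CALD1 fell by 0.21. Of 33 measured small GTPases and exchange factors of the cytoskeleton 10 rose and 9 fell, near the 26.1% and 25.2% of all genes tested. RHOA was at 15582 ± 486 unwounded and 15587 ± 662 after HDW (adjusted p = 0.965), while RAC1 fell by 0.10 and CDC42 fell by 0.26. The exchange factor ARHGEF2, which the study describes as an activator of RAC1 and RHOA, rose by 0.97. The CDC42 effector CDC42EP4 fell by 0.84.

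Of 25 measured cytokine genes 15 rose and 3 fell. IL1A, an alarm cytokine stored in keratinocytes, held 1558, 1892, 1645, 1805 and 1766 normalized counts unwounded and 3319, 4204, 4072, 3699 and 3923 after HDW, a change of 1.15 log2 units (SE 0.0630, edgeR adjusted p = 1.60e-09). IL33, a nuclear alarmin, went from 21.2 ± 11.2 to 67.6 ± 13.9. Its receptor gene IL1RL1 was close to absent unwounded, at 0, 1.78, 0, 1.86 and 0.964 normalized counts, and held 28.7, 34.5, 23.6, 22.9 and 37.2 after HDW. IL36G rose by 1.09, the growth factors FGF2 and PDGFB by 1.23 and 1.08, and VEGFA by 0.79. The death ligand TNFSF10 fell by 1.16 and the macrophage factor CSF1 fell by 0.86. The neutrophil chemokine CXCL8 rose by 1.10, whereas CXCL1, which acts on the same receptor, fell from 1069, 1319, 998, 1167 and 1212 to 691, 651, 738, 789.7 and 715, a change of -0.69 log2 units (SE 0.0683, edgeR adjusted p = 7.50e-07). These 2 chemokines thus moved in opposite directions, and the groups did not overlap for CXCL1. Of 24 NF-kB subunits and feedback genes 12 fell, 2 rose and 10 did not pass. NFKBIA, the inhibitor that NF-kB itself induces, fell by 0.56, the precursor subunit NFKB2 fell by 0.36 and TNFAIP2 fell by 1.22.

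Interferon-stimulated genes mostly fell. Of 52 measured members 39 fell, 2 rose and 11 did not pass, the median log2 fold change was -0.59, and 7 were DE and lower. TRIM22, an antiviral ubiquitin ligase, held 7574, 9798, 8411, 8812 and 8847 normalized counts unwounded and 3072, 4318, 3661, 2882 and 3564 after HDW, a change of -1.31 log2 units (SE 0.0916, edgeR adjusted p = 1.86e-08). IFIT3, which binds foreign RNA complexes, went from 3239, 4709, 2886, 4514 and 3567 to 1449, 2577, 1847, 1154 and 1736, a change of -1.11 log2 units (SE 0.175, edgeR adjusted p = 8.11e-05). The groups did not overlap for either gene. The transcription factor IRF1 fell by 1.01 and the immunoproteasome subunit PSMB9 fell by 1.21. Several abundant members did not pass, such as ISG15 at 3859 ± 1103 and 3748 ± 1122 (adjusted p = 0.878) and IFI27 at 13521 ± 2078 and 13020.2 ± 2071 (adjusted p = 0.689). RefSeq promoter windows matched only 41 of these 52 genes, under 80%, so no share of the list with the interferon response element is given. The IFIT3 promoter is shown as an example and does not stand for the list. It holds the element (GAAA, any 2 bases and GAAA, either strand) 2 times, in capitals. The matches start -156 and -122 bases from the start of transcription. The stretch shown lies at chr10:89327827-89327996 (plus strand), the bases just before the RefSeq transcript start.
IFIT3: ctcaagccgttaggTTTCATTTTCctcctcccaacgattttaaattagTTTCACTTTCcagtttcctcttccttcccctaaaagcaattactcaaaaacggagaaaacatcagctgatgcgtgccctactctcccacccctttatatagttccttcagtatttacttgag

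**Figure D2:**
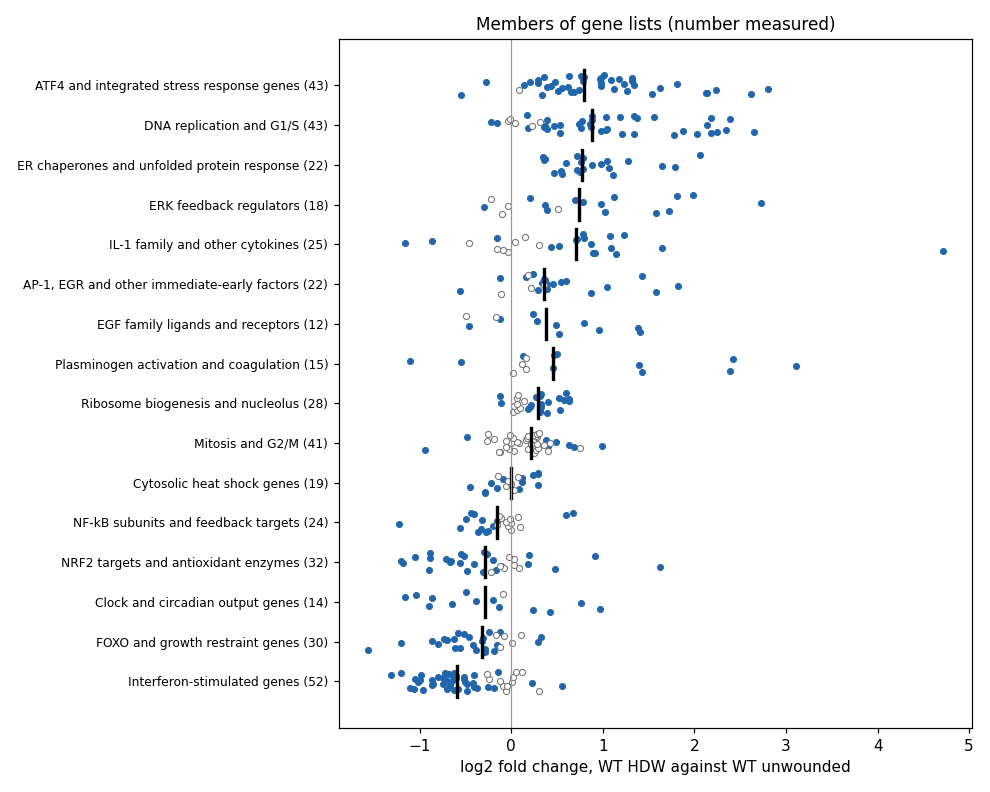
Log2 fold change after HDW (horizontal axis) of every measured member of 16 gene lists in WT cells, with filled points at an adjusted p of at most 0.05, open points above it, and a bar at each list's median. ER chaperone, ATF4 and DNA replication members lie mainly above 0 and interferon, FOXO, NRF2 and clock genes mainly below, while mitotic genes have a median of 0.22.

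Genes of the integrated stress response mostly rose. Of 43 measured ATF4 and integrated stress response genes 40 rose, 2 fell and 17 were DE and higher, with a median log2 fold change of 0.80. TRIB3, a pseudokinase that feeds back on ATF4, held 743, 1490.0, 675, 1457 and 1181 normalized counts unwounded and 5026, 9809, 7731, 5391 and 6323 after HDW, a change of 2.62 log2 units (SE 0.220, edgeR adjusted p = 1.30e-07). CTH, which makes cysteine in the transsulfuration pathway, went from 57.6, 74.9, 44.7, 71.5 and 61.7 to 325, 557, 486, 368 and 432, a change of 2.80 log2 units (SE 0.168, edgeR adjusted p = 3.74e-09). The lowest HDW culture had 3.37 times the TRIB3 and 4.33 times the CTH of the highest unwounded culture. PSAT1, of serine synthesis, rose by 2.14, the cystine transporter SLC7A11 by 1.63, the folate enzyme MTHFD2 by 1.26 and the glutathione-degrading CHAC1 by 2.23. The tRNA synthetases on the list rose without exception among AARS1 (1.18), GARS1 (1.32), WARS1 (0.97), EPRS1 (0.80), CARS1 (0.76), NARS1 (0.63) and SARS1 (0.36). ASNS, asparagine synthetase, rose by 2.12 and DDIT3, which encodes CHOP, by 1.53, with 49.3% and 39.6% of their exonic bases shared with other genes. ATF4 mRNA itself moved much less than its targets, from 13156, 15644, 13970.1, 15618 and 15229.6 to 18128, 18772, 18916, 18343 and 18917, a change of 0.34 log2 units (SE 0.0447, edgeR adjusted p = 1.55e-05). ATF5 fell by 0.55 and NUPR1 fell by 0.28. The translation inhibitor EIF4EBP1 rose by 1.17, and the transcript of the kinase GCN2, EIF2AK4, had an adjusted p of 0.177 at 4356 ± 149 and 4194 ± 129.

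Chaperones and export machinery of the endoplasmic reticulum rose with them. All 22 measured members rose, 7 were DE, and the median was 0.77. HSPA5 (BiP), the main chaperone of the endoplasmic reticulum, held 57571, 89761, 56949, 95294 and 78726 normalized counts unwounded and 148345, 185338, 167676, 153678 and 163392 after HDW, a change of 1.11 log2 units (SE 0.125, edgeR adjusted p = 2.70e-06). HERPUD1, of protein retrotranslocation, went from 1733, 2769, 1569.9, 2622 and 2347 to 6095, 8264, 7239, 6485 and 6578, a change of 1.65 log2 units (SE 0.132, edgeR adjusted p = 7.91e-08). Neither gene overlapped between the groups. SDF2L1, a BiP cofactor, rose by 1.79, HYOU1 by 1.27, the sensor ERN1 (IRE1) by 0.78, its target XBP1 by 0.88 and the sensor EIF2AK3 (PERK) by 0.50. The cytosolic heat shock genes did not share this pattern, with 7 of 19 rising and 6 falling. HSPA8 was at 19972 ± 1623 and 20432 ± 2669 (adjusted p = 0.784), and the inducible HSPA1A fell by 0.29.

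Promoter sequence was available in RefSeq (GRCh38.p14, 250 bases before to 50 after each start) for 37 of the 43 ATF4 list genes and 20 of the 22 chaperone genes. It was available for only 11011 of the 15348 tested genes, so the shares over tested genes leave out the rest. The ATF4 element TGATGCAA, searched on both strands, occurred in 5 of the former windows (13.5%) in 0.923% of all windows and in 0.5% of the windows of tested genes. The ER stress element, CCAAT followed after 9 bases by CCACG on either strand, occurred in 6 of the latter (30%) in 0.0806% of all windows and in 0.127% of the windows of tested genes. These motifs do not contain one another. The stretches before the start are shown for CHAC1 and AARS1, which carry the ATF4 element, and for HSPA5 and XBP1, which carry the ER stress element. They lie at chr15:40953241-40953470 (plus strand), chr16:70289507-70289716 (minus strand), chr9:125241344-125241463 (minus strand) and chr22:28800570-28800669 (minus strand), and are printed in the direction of transcription with the matches in capitals. A match is a description of the letters, and binding was not measured.
CHAC1: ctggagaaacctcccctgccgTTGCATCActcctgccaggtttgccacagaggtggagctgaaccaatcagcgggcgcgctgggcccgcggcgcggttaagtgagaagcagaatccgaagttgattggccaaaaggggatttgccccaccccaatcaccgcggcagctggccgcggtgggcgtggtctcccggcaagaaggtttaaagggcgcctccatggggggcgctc
AARS1: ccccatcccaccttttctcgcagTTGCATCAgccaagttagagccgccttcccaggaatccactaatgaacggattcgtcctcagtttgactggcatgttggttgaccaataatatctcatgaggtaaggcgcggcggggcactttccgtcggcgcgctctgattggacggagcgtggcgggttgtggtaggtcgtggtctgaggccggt
HSPA5: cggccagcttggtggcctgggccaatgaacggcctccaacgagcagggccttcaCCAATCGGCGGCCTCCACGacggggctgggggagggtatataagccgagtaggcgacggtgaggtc
XBP1: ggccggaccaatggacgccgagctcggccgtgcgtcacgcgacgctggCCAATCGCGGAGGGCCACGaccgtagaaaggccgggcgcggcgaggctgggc

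DNA replication genes mostly rose, and most mitotic genes did not pass. Of 43 measured DNA replication and G1/S genes 36 rose, 2 fell and 19 were DE and higher, with a median log2 fold change of 0.88. CDC6, which loads the replicative helicase, held 43.7, 55.3, 61.6, 61.3 and 61.7 normalized counts unwounded and 404, 331, 321, 406 and 376 after HDW, a change of 2.66 log2 units (SE 0.105, edgeR adjusted p = 6.34e-11). The helicase subunit MCM6 went from 378, 325, 332, 306 and 340.3 to 1817, 999, 1261, 1855 and 1638, a change of 2.18 log2 units (SE 0.153, edgeR adjusted p = 1.99e-08). The lowest HDW culture had 5.2 times the CDC6 and 2.64 times the MCM6 of the highest unwounded one. The other helicase subunits rose by 1.77 (MCM2), 1.33 (MCM3), 1.21 (MCM4), 2.02 (MCM5) and 0.53 (MCM7) on the log2 scale. The transcription factor E2F1 rose by 2.39, the GINS subunit GINS2 by 2.35 and the checkpoint adaptor CLSPN by 2.18. DTL, an adaptor for degradation of licensing factors, rose by 2.91. The clamp PCNA, at 2994 ± 83.7 unwounded and 3417 ± 272 after HDW, rose by only 0.19, and the ribonucleotide reductase subunit RRM1 did not pass (log2 value 0.05, adjusted p = 0.630).

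Of 41 measured mitosis and G2/M genes, 33 did not pass, 6 rose and 2 fell, 30 had a value above 0, and the median was 0.22. The spindle checkpoint gene MAD2L1 rose by 0.40, the kinase TTK by 0.99 (adjusted p = 0.0537 without unwounded replicate 4) and the spindle assembly factor TPX2 by 0.38. MKI67, the proliferation marker, held 147, 103, 129, 81.8 and 90.6 normalized counts unwounded and 158, 78.2, 98.7, 148 and 122 after HDW. These ranges overlap, and the log2 fold change was 0.16 log2 units (SE 0.196, edgeR adjusted p = 0.512). The mitotic kinase CDK1 held 76.9 ± 14.7 and 78.4 ± 8.58 (adjusted p = 0.856), cyclin CCNB1 193 ± 35.9 and 177 ± 25 (adjusted p = 0.442). The phosphatase CDC25B fell by 0.94 from 9188 ± 764. The mitotic genes were measured with less precision, their median SE being 0.169 against 0.134 for the replication genes. Upstream of S phase, cyclin D1 (CCND1) went from 3524, 3258, 3227, 3422 and 3105 to 6739.5, 5996, 6893, 7276 and 6632, a change of 1.02 log2 units (SE 0.050, edgeR adjusted p = 5.46e-10), with no overlap between groups. Cyclin D3 (CCND3) fell by 0.86, the inhibitor CDKN1C (p57) fell by 0.84 and the pocket protein RBL2 fell by 0.47. The inhibitor CDKN1A (p21), the most abundant of its list, held 22557 ± 2122 and 22687 ± 4043 (adjusted p = 0.970).

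The E2F motif, TTTCCCGC or TTTGGCGC on either strand, occurred in 19 of 38 replication gene windows (50%), in 3 of 34 mitotic ones (8.82%) in 2.31% of all RefSeq windows and in 3.64% of the windows of tested genes. It is shown in capitals in the stretches before the starts of MCM6, E2F1 and GINS2, at chr2:135876444-135876613 (minus strand), chr20:33686386-33686485 (minus strand) and chr16:85688955-85689054 (minus strand), the 2 matches of MCM6 starting -152 and -90 bases from the start.
MCM6: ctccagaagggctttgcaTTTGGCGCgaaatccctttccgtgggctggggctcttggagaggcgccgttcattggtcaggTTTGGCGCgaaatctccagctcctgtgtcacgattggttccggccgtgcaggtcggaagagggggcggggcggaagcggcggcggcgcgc
E2F1: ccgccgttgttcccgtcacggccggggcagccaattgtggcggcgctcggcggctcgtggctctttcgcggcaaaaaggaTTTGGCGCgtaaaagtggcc
GINS2: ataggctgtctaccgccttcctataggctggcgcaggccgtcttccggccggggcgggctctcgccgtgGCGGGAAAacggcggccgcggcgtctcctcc
RefSeq windows matched only 267 of the 402 higher and 157 of the 238 lower DE genes, under 80%, so motif shares over all DE genes are void and are not compared. The tested genes, with windows for 11011 of 15348, are also under 80%. Their motif shares describe only the genes with a window.

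**Figure D3:**
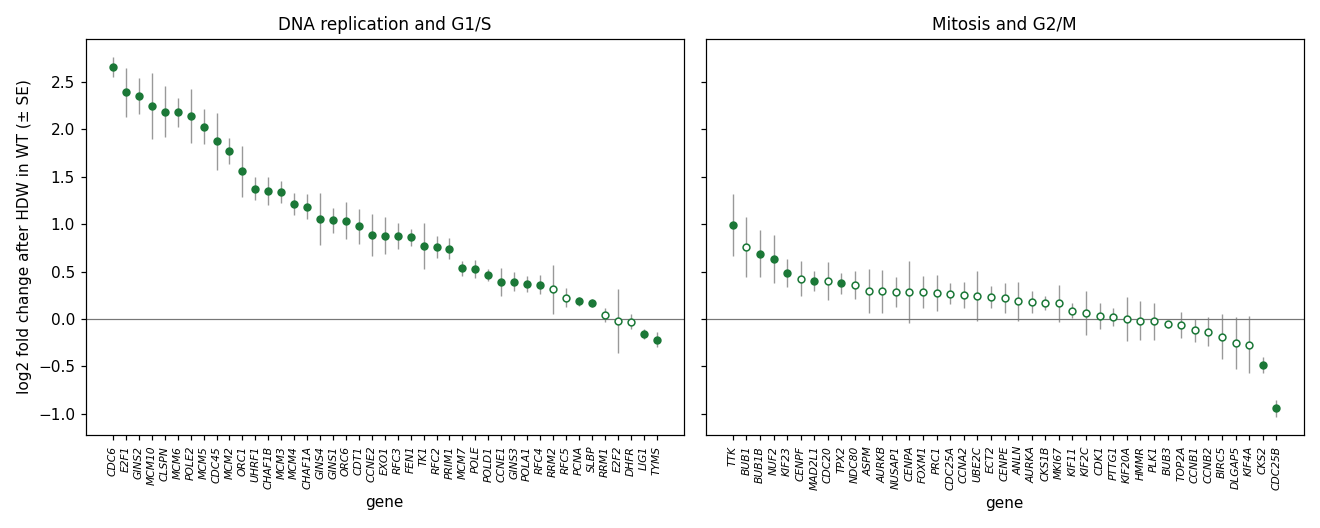
Log2 fold change after HDW with its SE (vertical axis) for the 43 measured DNA replication and G1/S genes (left) and the 41 mitosis and G2/M genes (right) in WT cells, each panel ordered by value and filled at an adjusted p of at most 0.05. Replication genes reach 2.66 for CDC6, while 33 of the 41 mitotic genes did not pass and 30 of the 41 lie above 0.

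Genes that mark quiescence or restrained growth fell. Of 30 measured FOXO and growth restraint genes 23 fell and 2 rose, with a median log2 fold change of -0.32. PIK3IP1, an inhibitor of PI3 kinase, held 3406, 3274, 3450.2, 3029.8 and 3345 normalized counts unwounded and 1616, 1081, 1389, 1543 and 1538 after HDW, a change of -1.21 log2 units (SE 0.0820, edgeR adjusted p = 1.42e-08). The ubiquitin ligase FBXO32 fell from 5262, 4648, 5211, 4643 and 4843 to 1711, 1741, 1703, 1514 and 1648. The HDW cultures lay below the unwounded ones in both genes. The repressor BCL6 fell by 0.87, SESN3 fell by 0.79 and the proapoptotic BMF fell by 1.35 and BCL2L11 fell by 0.68. FOXO3 and FOXO1 themselves fell by 0.18 and 0.28. Of 14 clock and circadian output genes 9 fell and 4 rose. The output factor DBP fell by 1.17 and TEF fell by 1.04 and the repressor PER2 fell by 0.90 and NR1D2 fell by 0.86, while the activator NPAS2 rose by 0.97 and CRY1 by 0.76. Glucocorticoid-responsive genes also leaned down, 7 of 10 falling, with ZBTB16 at -1.14 log2 units (SE 0.0494, edgeR adjusted p = 1.66e-10), and FKBP5 fell by 0.51.

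Other lists of stress and metabolism moved in either direction. Of 32 NRF2 targets and antioxidant genes 20 fell, 5 rose and the median was -0.28. AKR1C3, an aldo-keto reductase, fell by 1.21, catalase CAT fell by 0.89 and the glutathione synthesis subunit GCLM fell by 0.90, whereas SLC7A11, also an ATF4 target, was the 1 DE gene that rose. Of 21 p53 targets 12 fell and 5 rose, and DDB2 fell by 0.63. Of 33 glycolysis and hypoxia genes 13 fell and 10 rose. The hypoxia-induced EGLN3 fell by 1.29 and ADM fell by 1.10, and the glucose transporter SLC2A1 fell by 0.46. Of 32 sterol and fatty acid synthesis genes 17 rose and 3 fell. Of 30 autophagy and lysosome genes 15 fell and 6 rose. Ribosome biogenesis genes rose in 18 of 28, at modest size (median 0.29), with BOP1 at 0.63 and the nucleolar NCL at 0.39.

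Smaller families moved unevenly. Arginase ARG2 rose by 1.5, with 39.6% of its exonic bases shared with another gene, and ODC1, the first enzyme of polyamine synthesis, went from 219, 241, 193, 221 and 218 to 326, 578, 460.0, 344 and 381 normalized counts, a change of 0.94 log2 units (SE 0.141, edgeR adjusted p = 4.80e-05). Of 17 arginine and polyamine genes 11 rose and 5 fell. In retinoid metabolism LRAT, which stores retinol as ester, rose from 10.3 ± 2.08 to 75.0 ± 7.17, and RDH10, which oxidises retinol, fell by 0.82. Class 3 semaphorins split, as SEMA3B rose by 1.14 while SEMA3C fell by 0.76 and SEMA3E fell by 0.96. Of 14 Eph and ephrin genes 9 fell and 3 rose, and EPHA2 rose by 0.67. Of 14 Notch pathway genes 7 fell and 2 rose, as the ligand JAG2 fell by 0.85 and JAG1 rose by 0.44. Of 31 junction genes 14 rose and 7 fell with none DE, and the tight junction claudin CLDN4 rose by 0.91 and CLDN1 fell by 0.40. No S100 gene was DE, 5 of 14 rising and 4 falling. Over all genes tested only 4.17% were DE, 26.1% rose and 25.2% fell. The absence of DE genes from the junction and S100 lists is therefore not read as a trait of these families. Of 16 genes of epithelial to mesenchymal transition and migration 10 rose and 3 fell with a median of 0.29, the epithelial CDH1 rose by 0.38 and VIM had an adjusted p of 0.279. CD59, which blocks the complement attack complex, rose by 0.92 and CD46, another complement regulator, fell by 0.72. The monocyte marker CD14, which the unwounded keratinocyte cultures held at 1683 ± 105 normalized counts, fell to 916 ± 53.1.

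Whether a response differed in cells without GCN2 was tested as the interaction of wounding and genotype over all 20 libraries. The interaction is the log2 fold change after HDW in GCN2KO minus that in WT, so it shares the WT libraries with the values above. Over 16536 genes, 192 interactions were called above 0 (1.16%) and 355 below 0 (2.15%) at a size of at least 1 and an adjusted p of at most 0.05. Among the 402 higher DE genes of WT, 235 had a smaller response in GCN2KO by that call, and among the 238 lower ones 75 did, while none had a larger one. These counts rest on genes picked for a large WT value and describe that choice in part. In GCN2KO itself, 75 genes were DE and higher (0.475%) and 31 lower (0.196%).

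Differences between genotypes were frequent among replication, amino acid and chaperone genes. The transcript of EIF2AK4, which encodes GCN2, held 894 ± 61.8 normalized counts in unwounded GCN2KO cells and 874 ± 66.5 after HDW. The median log2 fold change in GCN2KO was -0.09 over the ATF4 list, -0.03 over the chaperone list and -0.05 over the replication list. The interaction passed the adjusted p, with no threshold on size, for 23.7% of all genes and for 37 of the 43 ATF4 genes, 22 of the 22 chaperone genes and 30 of the 43 replication genes. CTH changed by -0.05 in GCN2KO, an interaction of -2.86 (SE 0.171, edgeR adjusted p = 5.69e-11). Its GCN2KO level was already 1009.9 ± 45.6 unwounded and 969 ± 53.3 after HDW, above the WT level in either state. HSPA5 held 370682 ± 38062 and 337051 ± 35924 normalized counts in GCN2KO, an interaction of -1.25 (SE 0.171, edgeR adjusted p = 1.16e-05). CDC6 held 459.5 ± 68.8 and 345 ± 73.5, an interaction of -3.08 (SE 0.202, edgeR adjusted p = 2.32e-10). For KRT6B the interaction was -3.19 (SE 0.168, edgeR adjusted p = 9.76e-12), for PHLDA1, a pleckstrin homology gene of ERK feedback, -1.05 (SE 0.0790, edgeR adjusted p = 2.28e-09), and for FBXO32, which fell in WT, 1.40 (SE 0.0993, edgeR adjusted p = 8.52e-10).

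Other responses in WT gave no detectable difference between genotypes. INHBA rose by 1.08 in GCN2KO (interaction 0.009 (SE 0.124, edgeR adjusted p = 0.971)). CCN1 rose by 1.37 (interaction 0.14 (SE 0.234, edgeR adjusted p = 0.700)) and EGR1 by 0.95 (interaction -0.10 (SE 0.171, edgeR adjusted p = 0.709)). PTGS2 gave 1.12 in GCN2KO (interaction -0.12 (SE 0.144, edgeR adjusted p = 0.581)) and CCND1 1.26 (interaction 0.23 (SE 0.122, edgeR adjusted p = 0.173)). For IFIT3, which fell in WT, the interaction was 0.21 (SE 0.291, edgeR adjusted p = 0.642). A p above the threshold does not show equal responses. The SE gives the precision of each interaction and is not a limit on its size. Ribosome biogenesis had a median of 0.29 in WT and 0.42 in GCN2KO, with the interaction passing for 3 of 28 genes.

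**Figure D4:**
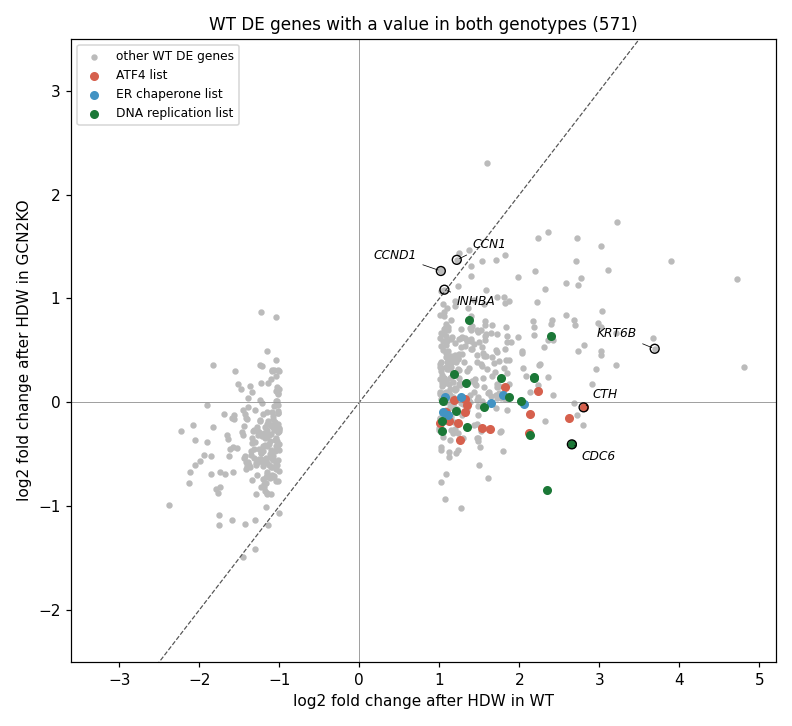
Log2 fold change after HDW in WT (horizontal axis) and in GCN2KO cells (vertical axis) for the WT DE genes with a value in both, with the ATF4, ER chaperone and DNA replication lists in colour, 6 genes named and a dashed line of equal change. The coloured points lie below the dashed line, while INHBA, CCN1 and CCND1 lie near the dashed line.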

How the data were processed

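RNA-seq was analysed from 10 WT NTERT keratinocyte cultures, 5 unwounded and 5 at 6 h after HDW. The 10 GCN2KO cultures were used for comparison between genotypes and in the scaling of normalized read counts. The test of wounding in WT used factors from the 10 WT libraries alone. Per the study's methods and the labels, the authors trimmed reads with Trimmomatic, aligned them with STAR to GRCh38 and counted reads per gene with featureCounts. The deposited values are raw read counts. Strand setting and annotation release are not given in the sources used here, so reads of overlapping genes on opposite strands could not be told apart. Of 57500 gene IDs listed, 56410 were matched to names in GENCODE 44. Of 225 genes named, 15 share over 20% of their exonic bases with another gene, and besides those with a share in the text these are ATF5, FOXO1, GALNT12, IRF1, MCM2, NREP, PLAU, TPM1 and VIM.

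Counts were tested with the quasi-likelihood test of edgeR 4.0.16 in R 4.3.3 (TMM factors, filterByExpr with a minimum count of 10 and a total of 15), unpaired, with Benjamini-Hochberg adjustment over all genes tested. The biological coefficient of variation was 0.0587 in WT. The SE is the size of the log2 fold change divided by the square root of F. DESeq2 1.42.0 was an alternative. Tables and plots used Python 3.11, pandas 2.3.3, numpy 2.4.6 and matplotlib 3.10.9. The edgeR script was tested on simulated data. Named genes were, in each direction, the 12 DE genes without overlap that had the smallest adjusted p and the 12 of largest fold change at a mean of at least 50 normalized counts, the largest and most abundant members of each list and the genes that define it, cell type markers, and genes at both ends of the interaction. From these a selection is named, and some genes are not reported here. The members, lists and rule were chosen with earlier results of these data known, and the E2F, ATF4, ER stress and interferon motifs after seeing these results. Alternatives were another tool, scaling, filter, set of libraries, depth, replicate block and leaving out each library.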

Additional observations from a re-analysis of the deposited data

Results flagged for a closer look

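TGM2 in unwounded WT cells had 1 culture apart from the rest of its group, at 205 normalized counts in replicate 2 against 163 to 168 in the other 4. Of 76 groups of 5 cultures examined this was the only 1 with such a gap, and chance alone gives such a gap in about 1 in 20 groups. All HDW values of TGM2 lay above it.

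For 6 of the 12 genes whose responses were compared between genotypes, the difference in response passed the interaction test at a size of at least 1. These 12 genes were picked mainly from both ends of the interaction p-values, so that count follows from the choice and says nothing of how frequent such differences are. The log2 response in GCN2KO was lower than in WT by the interaction value of -3.19 for KRT6B, -3.08 for CDC6, -2.86 for CTH, -1.25 for HSPA5 and -1.05 for PHLDA1. For FBXO32, which fell in WT, the value was 1.40. The genotypes also differed in level before wounding for CTH, HSPA5 and CDC6, as given above, and the part of that starting level in the difference was not tested.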

How the results depend on the processing

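The counts of DE genes depended mainly on the low-count filter. Requiring a mean of at least 50 counts (12252 genes tested) left 250 higher and 121 lower DE genes against 402 and 238, and testing without a filter (31192 genes) gave 601 and 397. Other settings stayed within 1.5 times: 486 and 323 with DESeq2, 400 and 240 with DESeq2 size factors, 364 and 266 with library size alone, 465 and 288 with all 20 libraries in the fit, and 331 and 197 with counts thinned to the smallest library. Library size alone gave 3368 higher and 4596 lower genes at the adjusted p alone. Without any 1 library the DE counts were 400 to 444 and 242 to 282, the counts at the adjusted p 3652 to 3947 and 3508 to 3858, and the interaction counts 171 to 217 above 0 and 323 to 371 below. With no fold threshold, 1851 interactions were above 0 and 2075 below.

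Whether the replicate numbers in the labels pair the samples could not be decided, since the check rests on only 5 libraries per group. The correlations of same-numbered deviations from the group means were 0.135, 0.171, -0.13, -0.14 and 0.0439. Of the 5 unwounded libraries, 3 correlated best with the HDW library of their own number. A replicate block in the fit gave 397 higher and 244 lower DE genes.

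Of 4043 alternative values for named genes 32 changed sign, in 9 genes that did not pass the test, among them CDK1, CDKN1A, ISG15 and RHOA. Calls were lost in 7, for EGFR (adjusted p = 0.0510), ERBB2 (0.316), FOXO3 (0.0820) and RAC1 (0.102) with all 20 libraries, for RAC1 (0.0963) with no filter, for MAD2L1 (0.0754) at thinned depth and for TTK (0.0537) without unwounded replicate 4. Calls were gained in 3, for ITGB4 and EIF2AK4. All 276 alternative interaction values kept their call, and 9 of them, in 3 genes that did not pass, changed sign. Of 954 alternative list medians 44 moved by more than the spread used, 16 of them with library size alone, and 36 changed sign, in 9 lists with medians of up to 0.15 in size. Depth limits the weakly expressed genes, above all in the unwounded libraries, which reach down to 14083504 counts, and counts of reads per gene say nothing of protein or of cells at the wound edge.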

Other observations

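Other high-ranking fallers had varied roles. SLC44A5, a choline transporter-like protein, fell from 2587 ± 74.6 to 1151 ± 60.4 normalized counts (mean ± SD, n = 5 in each group) and HEG1, a transmembrane receptor, from 3848 ± 211 to 1749 ± 40.3. CUL9, a cullin that binds p53, fell by 1.05 on the log2 scale, GALNT12, which starts O-linked glycans, fell by 1.19 and NREP fell by 1.85. STON1, of clathrin-coated vesicles, fell by 1.83 with 29.1% of its exonic bases shared with another gene. The interferon-inducible GBP4 fell by 1.76 and APOL3 fell by 1.86, and the iron exporter SLC40A1 fell by 1.14. The gene listed as ENSG00000112096, an ID without a name in GENCODE 44 but not thereby an unknown gene, fell from 14554 ± 1011 to 5896 ± 456. SOD2, an intended member of the NF-kB list, was a name that matched no listed ID. It is therefore missing from the counts given for that list. Whether ENSG00000112096 is that gene could not be settled with the annotation used here. Long non-coding RNAs were 36 of the 402 higher and 24 of the 238 lower DE genes. Their share among all genes tested was not counted, so these numbers cannot be read as many or few.

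All 13 mitochondrially encoded transcripts had a value above 0 and 11 rose, with a median log2 fold change of 0.25. They took 0.484% to 0.536% of the counts in the unwounded WT libraries and 0.544% to 0.633% after HDW. Kallikreins and their inhibitors rose in 4 of 6 measured members and clade B serpins in 6 of 11, while complement genes fell in 8 of 17 and rose in 1. Of 12 eIF2 kinases and partners 5 rose and 1 fell, of 29 translation initiation factors 13 rose and 6 fell, and of 21 BCL2 family and death receptor genes 5 rose and 6 fell. Over all genes tested 26.1% rose and 25.2% fell, and a count near those shares is not a result about the family. Simple epithelial keratins rose in 3 of 5, basal and suprabasal keratins rose in 5 of 10 and fell in 1, IGF binding proteins and receptors rose in 3 and fell in 3 of 8, and of 8 NADPH oxidase genes 1 rose and 1 fell. Of the other marker sets, the summed fibroblast markers were 904 to 1043 normalized counts unwounded and 758 to 854 after HDW, with COL1A2, COL3A1, PDGFRA, PDGFRB and THY1 at or below 10. The endothelial sum was 20.2 to 29.7 and 10.9 to 22.9. Their part in the results was not tested.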
